A study of Mus musculus with 8 samples.

Results

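Osteoclasts, the cells that resorb bone, form from macrophage precursors that need a pair of signals from osteoblast-lineage cells. One is RANKL (gene Tnfsf11), which binds the receptor RANK on the precursor, and the other is a ligand of the CSF1 receptor, either CSF1 (also called M-CSF, gene Csf1) or IL-34 (gene Il34). Osteoprotegerin (OPG, gene Tnfrsf11b) is a secreted decoy receptor that binds RANKL and keeps it from RANK. These 4 genes, grouped here as osteoclast-directing cytokines, were looked up by symbol among the 55335 gene identifiers of the deposited table, and all 4 were found.

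The values came from 8 RNA sequencing libraries. All were made from MC3T3-E1, a cell line of pre-osteoblasts that was established from mouse calvaria. On day 3 of culture, 4 libraries had been made from cells with TABS (Trio-Active bone scaffold, of a composition not stated in the labels) and 4 from cells with HA, a magnesium-doped hydroxyapatite scaffold. Every culture held a scaffold, so a difference shows TABS relative to HA and not which of them moved a gene. The labels give standard conditions, name no added hormone, cytokine or osteoclast precursor, and cover a single cell line. Levels are given in FPKM, fragments per kilobase of transcript scaled to the library's fragments, which corrects for transcript length. Levels of different genes can thus be set side by side only roughly, since the transcript lengths used were not stated. In bulk RNA, fewer cells that express a gene and less RNA per cell cannot be told apart.

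Genes with at least 1 FPKM in at least 4 libraries were tested (11280 genes) with limma on log2(FPKM + 1), with Benjamini-Hochberg adjusted p under 0.05 as threshold. Summed FPKM were 304893 to 307263 per TABS library and 312629 to 317439 per HA library, and read counts were not in the table, so the depth behind each value is unknown. Across tested genes, libraries correlated with a Pearson r of 0.987 to 0.992 within groups and 0.985 to 0.990 between them. Of 9 osteoblast markers, 9 passed the filter on low values. Of these, 2 were higher in TABS (Spp1 and Dmp1) and 4 lower (Ibsp, Sp7, Col1a1 and Alpl), beside 7.38% of all tested genes called. Alpl was under 1 FPKM in every TABS library and passed the filter through HA, where it is high. The call on Col1a1 was lost without TABS 1, TABS 2, TABS 3, TABS 4 or HA 2 (limma adjusted p up to 0.0743), and that on Spp1 without TABS 1, TABS 2 or HA 2 (up to 0.0633). Of 17 markers of osteoclasts and macrophages, 14 were below the filter, and their FPKM together came to 0.351 to 0.784 in TABS and 0.373 to 0.585 in HA. The highest single value among those 14 was 0.346 FPKM, and Tyrobp and Itgam were listed at 0 in every library. Itgam shares 3450 of its 5024 exon bases with Gm49368 on the same strand, which limits what its 0 can show. The other 3 were expressed in both groups and none of them passed the test. Their means were 114 FPKM in TABS and 114 FPKM in HA for Ctsk. Itgb3 had 4.13 FPKM in TABS and 3.74 FPKM in HA, and Nfatc1 5.79 FPKM in TABS and 5.32 FPKM in HA. No marker of T and B cells (of 6) or endothelial cells (of 4) reached the filter, against 1 of 5 for adipocytes (Fabp4, not called) and 2 of 5 for chondrocytes (Col2a1, higher in TABS, and Sox9, not called). The call on Col2a1 was lost when any 1 library other than HA 2 was left out (limma adjusted p up to 0.102).

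The RANKL arm had its decoy but not its ligand. Tnfsf11 was listed at 0 FPKM in all 4 TABS libraries and in all 4 HA libraries, so it was not tested and has no fold change. In GRCm38 the gene (ENSMUSG00000022015) lies on chromosome 14 from 78277445 to 78308043 on the minus strand, with 1 annotated transcript of 2236 bases in 5 exons. A 0 in this table was not unusual: of 4217 protein-coding genes whose longest transcript is within 20% of that length, 956 (22.7%) were listed at 0 in every library. Values well under 0.1 FPKM were nevertheless recorded. Among those genes, the lowest 1% of values above 0 lay under 0.00829 to 0.0120 FPKM in TABS libraries and under 0.00779 to 0.0113 FPKM in HA libraries. Of 80 genes of the proteasome, RNA polymerase II, translation and other functions shared by all cells, 0 were listed at 0 in every library and 2 in at least 1 library, Psma8 and Psmb11, subunits known from testis and thymus. Genes used by every cell cannot show whether a rare RNA would have been recorded. RANKL RNA was not detected on either scaffold, at a depth that is unknown.

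Tnfrsf11b, the OPG gene, was expressed on both scaffolds. It stood at 29.6, 28.3, 29.3 and 27.0 FPKM in TABS 1 to 4, against 23.5, 26.7, 27.2 and 28.7 FPKM in HA 1 to 4. The groups overlapped, and HA 1 was the lowest of the 8 libraries. The mean was 28.6 ± 1.18 FPKM in TABS and 26.5 ± 2.16 FPKM in HA (SD, n = 4 each), a log2 fold change of 0.10 ± 0.06 (SE), with a limma adjusted p of 0.334. The 95% interval of the log2 fold change was -0.03 to 0.24, or 0.977-fold to 1.18-fold on the FPKM + 1 scale. Without HA 1 the log2 fold change was 0.05 (limma adjusted p = 0.534). After a per-library correction for transcript GC content and length it was 0.17 and passed the test (limma adjusted p = 0.0452). Tnfrsf11b was higher than 85.4% of tested genes in TABS and 84.5% in HA. The gene (ENSMUSG00000063727) lies on chromosome 15 from 54250619 to 54278484, also on the minus strand, with 1 annotated transcript of 2818 bases.

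Csf1, the gene of the growth and survival factor of the macrophage lineage, was the most abundant of the 4. It had 69.4, 69.0, 68.3 and 70.8 FPKM in TABS 1 to 4, against 67.0, 70.3, 64.0 and 66.0 FPKM in HA 1 to 4. HA 2 lay among the TABS libraries and the other 3 HA libraries lay below all 4 of them. The mean was 69.4 ± 1.06 FPKM in TABS and 66.8 ± 2.63 FPKM in HA (SD, n = 4 each). The log2 fold change was 0.06 ± 0.04 (SE, limma adjusted p = 0.435), with a 95% interval from -0.04 to 0.15, or from 0.976-fold to 1.11-fold. The sign was not fixed by the data, since the GC and length correction gave -0.0048 (limma adjusted p = 0.946). Csf1 was higher than 94.5% of tested genes in TABS and 94.3% in HA. In GRCm38 it (ENSMUSG00000014599) lies on chromosome 3 from 107741048 to 107760469 on the minus strand. It has 7 annotated transcripts, and CSF1 is known in secreted and membrane-bound forms from alternative splicing, which a value per gene cannot separate.

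Il34, the gene of the second CSF1 receptor ligand, was expressed at a lower level. It had 12.5, 13.1, 13.7 and 14.4 FPKM in TABS 1 to 4, against 14.0, 13.2, 11.2 and 12.4 FPKM in HA 1 to 4. The groups overlapped through most of their range, with HA 3 the lowest and TABS 4 the highest library. The mean was 13.4 ± 0.79 FPKM in TABS and 12.7 ± 1.18 FPKM in HA (SD, n = 4 each). The log2 fold change was 0.08 ± 0.07 (SE, limma adjusted p = 0.52), with a 95% interval from -0.07 to 0.23, or from 0.949-fold to 1.18-fold. Without HA 3 it was 0.03 (limma adjusted p = 0.847). Il34 (ENSMUSG00000031750) lies on chromosome 8 from 110741829 to 110805924 on the minus strand. Its exons share 22 and 75 bases with the antisense genes Gm15894 and Gm15895, and no label or file says whether strand was used in the counting. Those genes were at most at 0.0691 and 0.0552 FPKM in any library.

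Among the 3 tested cytokine genes, 0 were called in either direction, where 7.38% of all tested genes were called (4.49% higher and 2.9% lower in TABS). That split of 506 higher and 327 lower genes was 915 and 239 after rescaling to TPM. None of the 3 had TABS and HA libraries that did not overlap, which was the case for 18% of tested genes (10.8% with TABS above HA and 7.15% with TABS below). The intervals of the 3 genes reach up to 1.11-fold for Csf1 and 1.18-fold for Tnfrsf11b and Il34, and down to 0.949-fold for Il34. For these 3 genes, the libraries are compatible with no change and with changes within those intervals, on the FPKM + 1 scale.

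**Figure D1:**
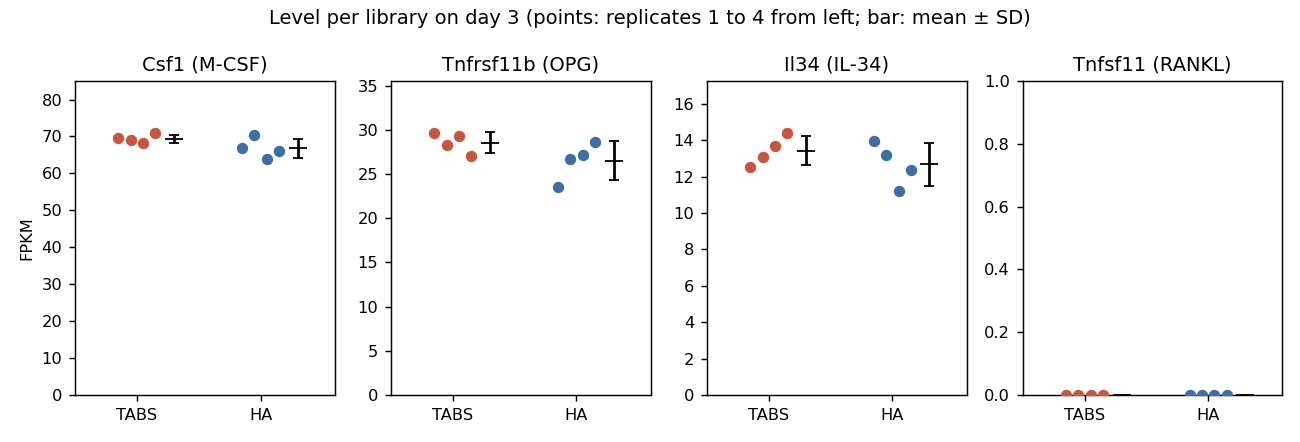
FPKM of the 4 cytokine genes in each library, with TABS on the left and HA on the right of each panel, points for replicates 1 to 4, and the mean ± SD beside them (each panel has its own axis from 0). Csf1 averaged 69.4 FPKM in TABS and 66.8 FPKM in HA, Tnfrsf11b and Il34 overlapped between the groups, and Tnfsf11 was at 0 in all 8 libraries.

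The order of the levels was the same in 8 of 8 libraries: Csf1, then Tnfrsf11b, then Il34, then Tnfsf11. Neighbours in this order did not overlap. The lowest Csf1 value was 64.0 FPKM (HA 3) and the highest Tnfrsf11b value 29.6 FPKM (TABS 1), while the lowest Tnfrsf11b value was 23.5 FPKM (HA 1) and the highest Il34 value 14.4 FPKM (TABS 4). Within a library, Csf1 stood at 5.18 ± 0.28 times the FPKM of Il34 in TABS and 5.30 ± 0.38 times in HA (SD, n = 4 each). The ratio of Csf1 to Tnfrsf11b was 2.43 ± 0.14 in TABS and 2.53 ± 0.25 in HA. The ratio of Tnfrsf11b to Il34 was 2.14 ± 0.20 in TABS and 2.12 ± 0.33 in HA. In each of the 3 ratios the means of the groups were closer to each other than the SD within HA. A ratio of RANKL to OPG, which is often used to sum up how much osteoclast formation a tissue supports, had a numerator of 0 in every library.

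Promoters are shown for those of the 4 genes that had a promoter entry, which were the most abundant gene and the undetected one. RefSeq's promoter table (GRCm38.p6) held entries for 2 of the 4 genes, Csf1 and Tnfsf11, and not for Tnfrsf11b or Il34. The windows are the 250 bases before the annotated start site, 5′ to 3′ on the gene's strand (minus for both), at chr3:107760470-107760719 for Csf1 and chr14:78308044-78308293 for Tnfsf11. Capitals mark CG steps.
Csf1: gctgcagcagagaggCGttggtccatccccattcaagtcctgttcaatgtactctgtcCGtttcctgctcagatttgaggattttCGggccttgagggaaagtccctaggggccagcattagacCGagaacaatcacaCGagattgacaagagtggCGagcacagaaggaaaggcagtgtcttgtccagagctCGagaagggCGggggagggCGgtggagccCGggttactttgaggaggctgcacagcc
Tnfsf11: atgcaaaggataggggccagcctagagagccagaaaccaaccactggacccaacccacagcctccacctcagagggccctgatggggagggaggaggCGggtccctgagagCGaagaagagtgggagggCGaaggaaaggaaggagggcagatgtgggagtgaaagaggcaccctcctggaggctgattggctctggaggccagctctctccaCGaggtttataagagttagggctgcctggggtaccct

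The Csf1 window held 10 CG steps at 56.4% G and C, and the Tnfsf11 window 4 CG steps at 60.4%. Over 32841 windows of the same length the median was 6 CG steps, with 16 in promoters of tested genes (10538 windows) and 2 in those of genes listed at 0 in every library (6589 windows). The median G and C content was 52.4% over all windows, 60.4% in promoters of tested genes and 46.0% in those of genes at 0. By G and C content the Tnfsf11 window was thus at the median of tested genes, and by CG steps nearer to that of genes at 0. The letters TATAA, searched on both strands, began 30 bases before the start site of Tnfsf11 on the gene's strand, where they overlap a match on the other strand, and were not in the Csf1 window. They were in 22.8% of all windows, in 11.7% of those of tested genes and in 35.4% of those of genes at 0. Neither window held TGTGGT, the core letters bound by RUNX factors (in 14.05% of all windows), or TGANTCA, the letters bound by AP-1 (in 6.75%), on either strand. A match of letters in a window is a description and not a measured site.

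How far the comparison of the 3 expressed genes rested on the processing is shown next. Of 17 alternative settings, 16 left Tnfrsf11b uncalled, and Csf1 and Il34 were uncalled in all 17. Over these settings the log2 fold change ran from 0.05 to 0.17 for Tnfrsf11b, from -0.0048 to 0.10 for Csf1 and from 0.03 to 0.12 for Il34.

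**Figure D2:**
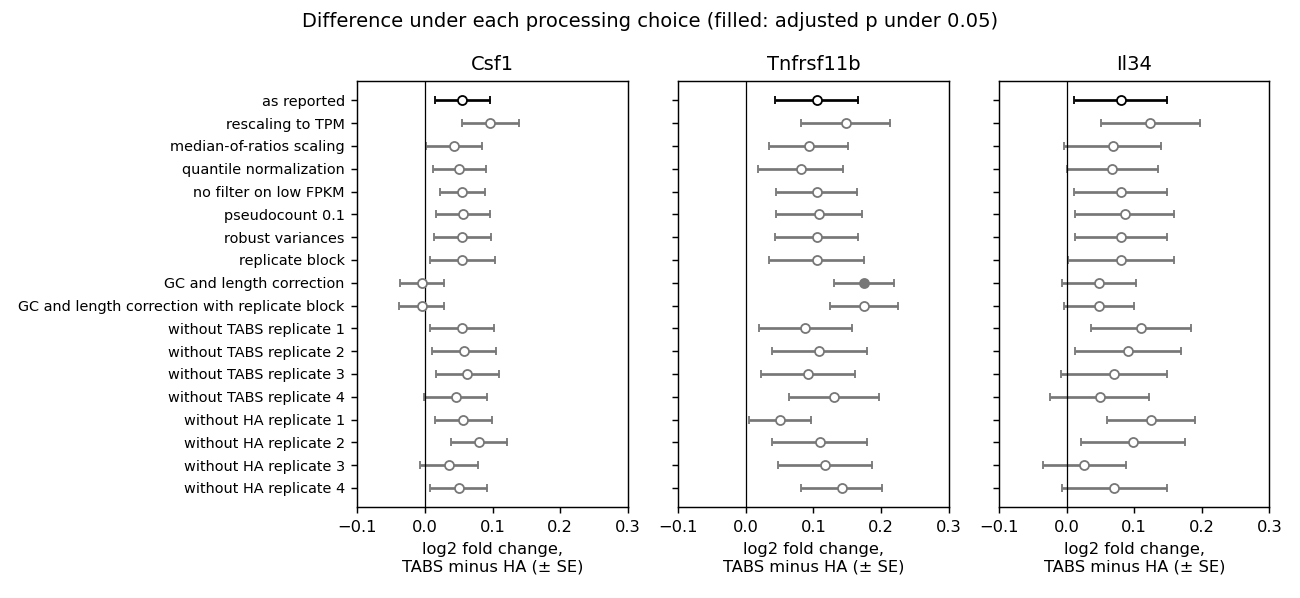
Log2 fold change of TABS minus HA (± SE) for Csf1, Tnfrsf11b and Il34 under the reported setting (top, black) and 17 alternatives, with filled points where the limma adjusted p was under 0.05. The filled point is that of Tnfrsf11b after the GC and length correction, at 0.17, and the points of Csf1 left of 0 are those with that correction.

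The genes of RANK and of the CSF1 receptor were below the filter in the MC3T3-E1 cells themselves, while those of some other receptors were expressed. Tnfrsf11a, the RANK gene, was listed at 0 in all 4 TABS libraries and in 3 of 4 HA libraries, with 0.00786 FPKM in HA 2. Csf1r, the gene of the receptor shared by CSF1 and IL-34, had 0.0488 to 0.136 FPKM in TABS and 0.0638 to 0.0923 FPKM in HA. Its exons overlap those of Hmgxb3 on the other strand. Ptprz1, the gene of a phosphatase receptor of IL-34, was listed at 0 in every library. Sdc1, the gene of the proteoglycan syndecan-1 that also binds IL-34, had a mean of 47.7 ± 2.51 FPKM in TABS and 44.1 ± 7.07 FPKM in HA (limma adjusted p = 0.492). Lgr4, a receptor of R-spondins known as a further receptor of RANKL, had 4.68 ± 0.23 FPKM in TABS and 4.62 ± 0.29 FPKM in HA (limma adjusted p = 0.901). Of 8 genes of receptors and binding partners, 3 were tested and 0 were called, beside 7.38% of all tested genes called. The other tested one was Trem2, a receptor gene of the macrophage lineage, with 1.91 ± 0.21 FPKM in TABS and 2.08 ± 0.23 FPKM in HA (limma adjusted p = 0.541).

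Of 7 genes of proteases that release membrane-bound RANKL or CSF1, with 1 inhibitor among them, 4 were tested. Of these, 1 rose, 0 fell and 3 were not called, beside 7.38% of all tested genes called. The gene that rose was Timp3, an inhibitor of the sheddase ADAM17 and of other metalloproteases. It had 65.6, 66.1, 71.4 and 68.0 FPKM in TABS 1 to 4, against 54.4, 55.8, 59.4 and 62.4 FPKM in HA 1 to 4, and all TABS libraries lay above all HA libraries (log2 fold change 0.22 ± 0.05 SE, limma adjusted p = 0.0378). Its exons share 1733 bases with Syn3 on the other strand. Its adjusted p was over the threshold when any 1 library other than HA 4 was left out (0.0648 to 0.101), with quantile normalization (0.0602) and when low genes were kept (0.0788). Mmp14, a membrane protease that cleaves RANKL, averaged 110 ± 3.32 FPKM in TABS and 101 ± 2.07 FPKM in HA (log2 fold change 0.13, limma adjusted p = 0.0773), and passed after rescaling to TPM (0.0312) and with quantile normalization (0.0451). Adam17, which sheds CSF1, averaged 6.04 ± 0.19 FPKM in TABS and 5.45 ± 0.41 FPKM in HA (limma adjusted p = 0.186). For Mmp14 and Adam17 too, all TABS libraries lay above all HA libraries, as they did for 10.8% of all tested genes. Adam10, another RANKL sheddase, averaged 17.2 ± 2.64 FPKM in TABS and 20.4 ± 4.68 FPKM in HA, with overlap, and was not called (limma adjusted p = 0.477).

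The signals known to switch on Tnfsf11 in osteoblasts were themselves low, apart from the prostaglandin enzymes. Of 12 genes of inducers, 8 were below the filter, 2 were listed at 0 in every library (Il1b and Fgf23) and 2 were tested. The cytokine gene Il6 had 0 to 0.0593 FPKM in TABS and 0 to 0.0316 FPKM in HA, Il11 had 0.0783 to 0.154 FPKM in TABS and 0.133 to 0.18 FPKM in HA, and Tnf was above 0 in TABS 2 alone. Lif stood at 0.51 ± 0.053 FPKM in TABS and 0.449 ± 0.030 FPKM in HA, and Pthlh, the gene of parathyroid hormone-related protein, at 0.851 ± 0.125 FPKM in TABS and 0.787 ± 0.169 FPKM in HA. Ptges, the gene of a prostaglandin E synthase, rose: it had 79.6, 79.7, 84.1 and 82.0 FPKM in TABS 1 to 4, against 68.9, 69.6, 67.9 and 64.5 FPKM in HA 1 to 4, without overlap (log2 fold change 0.26 ± 0.04 SE, limma adjusted p = 0.00601). With the replicate number as a block Ptges did not pass (limma adjusted p = 0.0612). Ptgs2, the inducible cyclooxygenase one step earlier in the pathway, was not called, at 2.56 ± 0.15 FPKM in TABS and 2.77 ± 0.29 FPKM in HA (limma adjusted p = 0.469).

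Receptors through which osteoblasts receive such signals were largely expressed. Of 17 genes 13 were tested, of which 1 rose, 1 fell and 11 were not called, beside 7.38% of all tested genes called. Pth1r, the parathyroid hormone receptor gene, fell: it had 0.938, 0.862, 0.936 and 0.933 FPKM in TABS 1 to 4, against 2.34, 2.01, 1.88 and 2.01 FPKM in HA 1 to 4 (log2 fold change -0.67 ± 0.06 SE, limma adjusted p = 0.000513). All TABS values lay under 1 FPKM, so Pth1r passed the filter only through HA, where it is high; with low genes kept its limma adjusted p was 0.00408. Its exons share 95 bases with Myl3 on the other strand. The osteoblast markers Ibsp, Sp7, Col1a1 and Alpl also fell, while Spp1 and Dmp1 rose. The 9 markers together came to 4678 to 5233 FPKM in TABS and 4354 to 4629 FPKM in HA. Spp1 was the largest part of that sum, with a mean of 3305 FPKM in TABS and 2431 FPKM in HA. The median log2 fold change of the 9 markers was -0.24. The part of these markers in the result was not tested. Tnfrsf1b, the gene of TNF receptor 2, rose to 4.74, 4.98, 4.42 and 4.96 FPKM in TABS 1 to 4, against 3.84, 3.25, 3.79 and 3.21 FPKM in HA 1 to 4 (0.35 ± 0.06 SE, limma adjusted p = 0.012). With the replicate number as a block Tnfrsf1b did not pass (limma adjusted p = 0.0763). Il17ra, an IL-17 receptor gene, had 2.97 ± 0.16 FPKM in TABS and 2.49 ± 0.16 FPKM in HA (limma adjusted p = 0.0613) and passed after rescaling to TPM (0.0351). Vdr, the vitamin D receptor gene, was not called at 11.6 ± 0.61 FPKM in TABS and 11.5 ± 0.44 FPKM in HA (limma adjusted p = 0.949). The prostaglandin E2 receptor genes in the list, Ptger2 and Ptger4, were below the filter. Their means were 0.0031 and 0.249 FPKM in TABS and 0.0098 and 0.165 FPKM in HA. Other prostaglandin E2 receptor genes were not looked at.

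Of 16 genes of transcription factors known to act at Tnfsf11, Tnfrsf11b or Csf1, 13 were tested. Of these, 1 rose, 0 fell and 12 were not called, or 7.69% called, beside 7.38% of all tested genes. Jun, a subunit of AP-1, rose: it had 60.4, 61.4, 59.1 and 57.6 FPKM in TABS 1 to 4, against 33.1, 39.3, 40.4 and 37.8 FPKM in HA 1 to 4 (log2 fold change 0.65 ± 0.06 SE, limma adjusted p = 0.000718). Its exons share 232 bases with the antisense gene Junos. Foxo1 (3.54 ± 0.115 FPKM in TABS, 3.21 ± 0.170 FPKM in HA) and the NF-kappaB gene Nfkb1 (8.49 ± 0.529 FPKM in TABS, 7.48 ± 0.760 FPKM in HA) came nearest to the threshold after it, with limma adjusted p of 0.184 and 0.194. Runx2, the lineage's master regulator, averaged 17.3 ± 0.459 FPKM in TABS and 18.4 ± 0.703 FPKM in HA and was not called (limma adjusted p = 0.245), but was lower after the GC and length correction (log2 fold change -0.15, limma adjusted p = 0.0363).

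Other signals from osteoblasts to osteoclasts and their precursors were called in 3 of 13 tested genes, out of 22 in the list, with 3 higher, 0 lower and 10 not called, beside 7.38% of all tested genes called. Cxcl12, a chemokine gene that draws precursors to bone, had 8.23, 8.41, 7.10 and 7.63 FPKM in TABS 1 to 4, against 6.07, 6.57, 6.29 and 6.50 FPKM in HA 1 to 4 (log2 fold change 0.26 ± 0.06 SE, limma adjusted p = 0.025). C3, the gene of complement component C3, had 62.8 to 69.2 FPKM in TABS and 53.1 to 58.4 FPKM in HA (0.26 ± 0.05 SE, limma adjusted p = 0.0124). Ephb4, the gene of a receptor for the ephrin-B2 of osteoclasts, had 16.3 to 17.2 FPKM in TABS and 14.0 to 15.3 FPKM in HA (0.17 ± 0.04 SE, limma adjusted p = 0.0386). All TABS libraries lay above all HA libraries for the 3, as they did for 10.8% of all tested genes. This separation and the calls rest on the same values. With the replicate number as a block none of the 3 passed. The call on Cxcl12 was lost without TABS 1, TABS 2, TABS 4, HA 1 or HA 3 (highest adjusted p 0.0725) and when low genes were kept (0.0581). That on Ephb4 was lost when any 1 library other than HA 1 was left out (0.0721 to 0.104), with median-of-ratios scaling (0.0574), with quantile normalization (0.0541) and after the GC and length correction (0.0919). Leaving out TABS 1, TABS 2, TABS 4 or HA 3 brought the count of 3 down to 1, and leaving out any of the others to 2. Ccl2, a monocyte chemokine gene, had 3.48 to 5.03 FPKM in TABS and 2.45 to 3.41 FPKM in HA and did not pass (limma adjusted p = 0.0764), although all TABS libraries lay above all HA libraries. Its limma adjusted p was under the threshold on the TPM scale (0.0496) and with the GC and length correction (0.0324). With the replicate number as a block it was 0.0373, and 0.0151 with the block and that correction. Sema3a, the gene of a semaphorin that restrains osteoclast formation, had 7.67 to 12.1 FPKM in TABS and 9.66 to 15.3 FPKM in HA (limma adjusted p = 0.245).

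Exons of Adam17, Cebpb, Ephb4, Foxo1, Ptger2, Ptger4 and Runx2 also overlap a gene on the other strand, so reads of both genes may have been counted for them.

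Together, the cytokine genes and these 6 groups held 86 genes, of which 51 were tested, 26 were below the filter and 9 were listed at 0 in every library. Of the 51, 7 rose, 1 fell and 43 were not called, or 15.7% called against 7.38% of all tested genes. Without Pth1r, which passed the filter through HA alone, 7 of 50 were called (14%). Instead of 8 calls there were 5 without TABS 1, TABS 2, TABS 4 or HA 3, and 6 or 7 without any of the other libraries. With the replicate number as a block there were 3: Jun, Pth1r and Ccl2, the last of which was not among the 8. The count was 4 with the block and the GC and length correction, 10 with that correction alone and 11 after rescaling to TPM. The median log2 fold change was 0.06, against 0.01 over all tested genes. The groups were put together with earlier results of these data known, among them the calls on Jun, Pth1r, Ptges and C3, so the share is a description of this choice of genes.

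**Figure D3:**
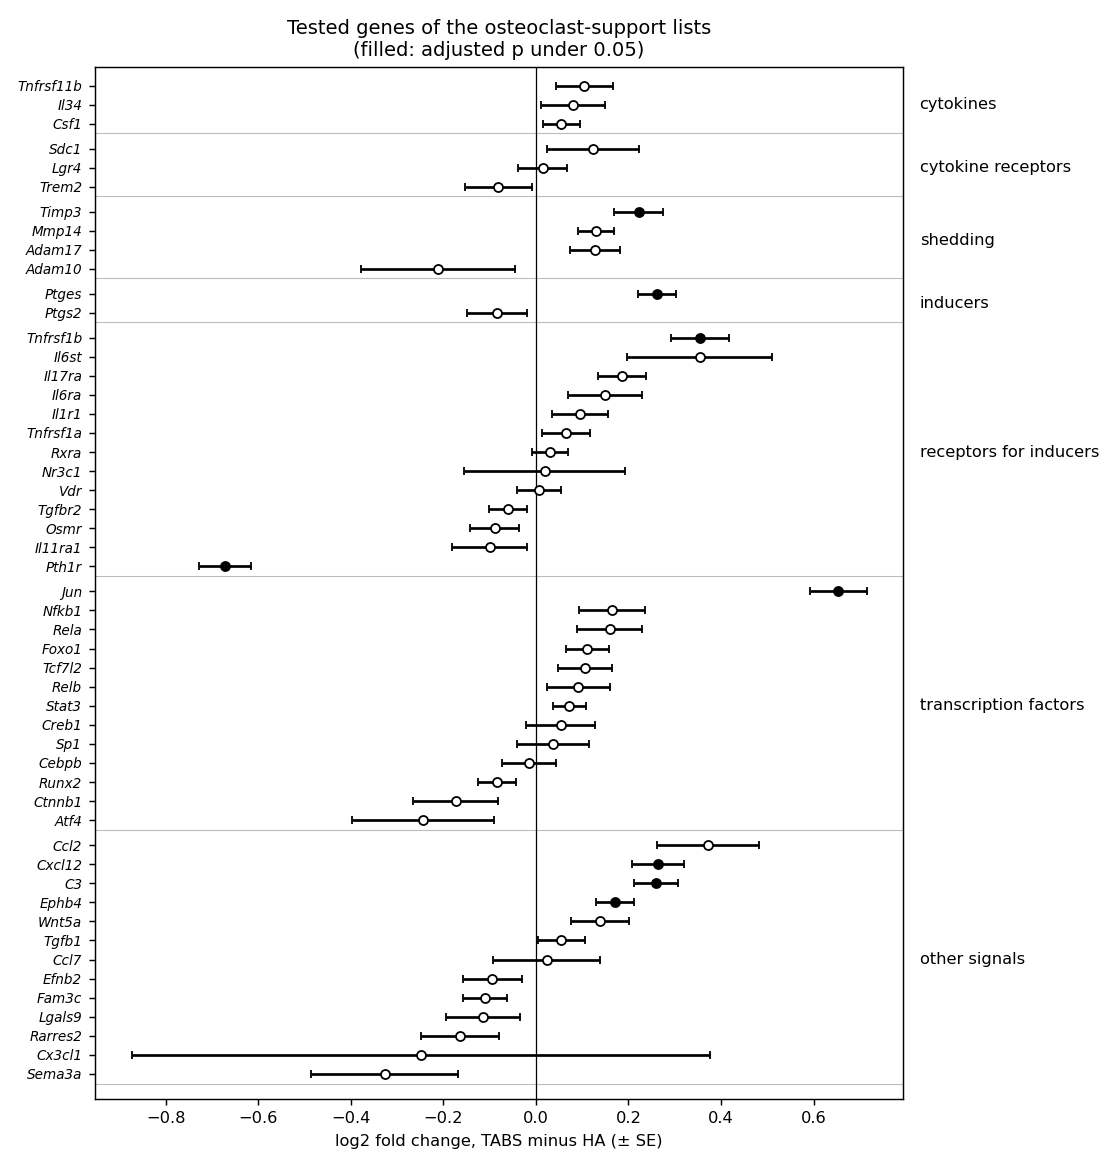
Log2 fold change of TABS minus HA (± SE) for the 51 tested genes, by group, with filled points for limma adjusted p under 0.05. The 3 cytokine genes at the top lie between 0.06 and 0.10 and are unfilled, while Jun (0.65) and Pth1r (-0.67) lie farthest from 0.

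Tnfsf11 and Tnfrsf11b belong to the TNF ligand and TNF receptor families. Of 18 ligand genes, 1 had a mean of 1 FPKM or more on either scaffold: Tnfsf12, the gene of the cytokine TWEAK, with 13.7 ± 0.80 FPKM in TABS and 13.8 ± 0.93 FPKM in HA (limma adjusted p = 0.902). Its exons share 731 bases with the readthrough gene Tnfsfm13. A further 12 ligand genes were below the filter and 5, Tnfsf11 among them, were listed at 0 in every library. The others at 0 were Tnfsf4, Cd40lg, Cd70 and Eda. Tnfsf10, the gene of TRAIL, which OPG also binds, had 0.306 to 0.373 FPKM in TABS libraries and 0.179 to 0.261 FPKM in HA libraries. It was below the filter, and in a fit with no filter its limma adjusted p was 0.0723.

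The receptor family was expressed more widely, with 11 of 25 genes tested, of which 2 rose, 0 fell and 9 were not called, beside 7.38% of all tested genes called. By mean FPKM, Tnfrsf11b stood in both groups behind a pair of receptor genes and above all others. The pair were Tnfrsf1a, the gene of TNF receptor 1 (98.9 ± 4.26 FPKM in TABS, 94.5 ± 5.21 FPKM in HA), and Ltbr, the lymphotoxin receptor gene (65.1 ± 2.64 FPKM in TABS, 64.0 ± 4.24 FPKM in HA). After it came Tnfrsf12a, the receptor gene for TWEAK, with 21.5 ± 3.16 FPKM in TABS and 19.6 ± 1.30 FPKM in HA. Those that rose were Tnfrsf1b and Tnfrsf9, the gene of the costimulatory receptor 4-1BB. Tnfrsf9 had 4.22 to 4.71 FPKM in TABS and 3.31 to 3.90 FPKM in HA (log2 fold change 0.24 ± 0.06 SE, limma adjusted p = 0.0328), which missed the threshold when any 1 library other than HA 1 was left out (0.0525 to 0.0912) and when low genes were kept (0.0732). Tnfrsf19, the receptor gene TROY, did not reach the filter, at 0.427, 0.333, 0.418 and 0.369 FPKM in TABS 1 to 4 against 1.09, 0.857, 0.902 and 0.894 FPKM in HA 1 to 4. In a fit with no filter it was lower in TABS (log2 fold change -0.48 ± 0.05 SE, limma adjusted p = 0.00608).

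**Figure D4:**
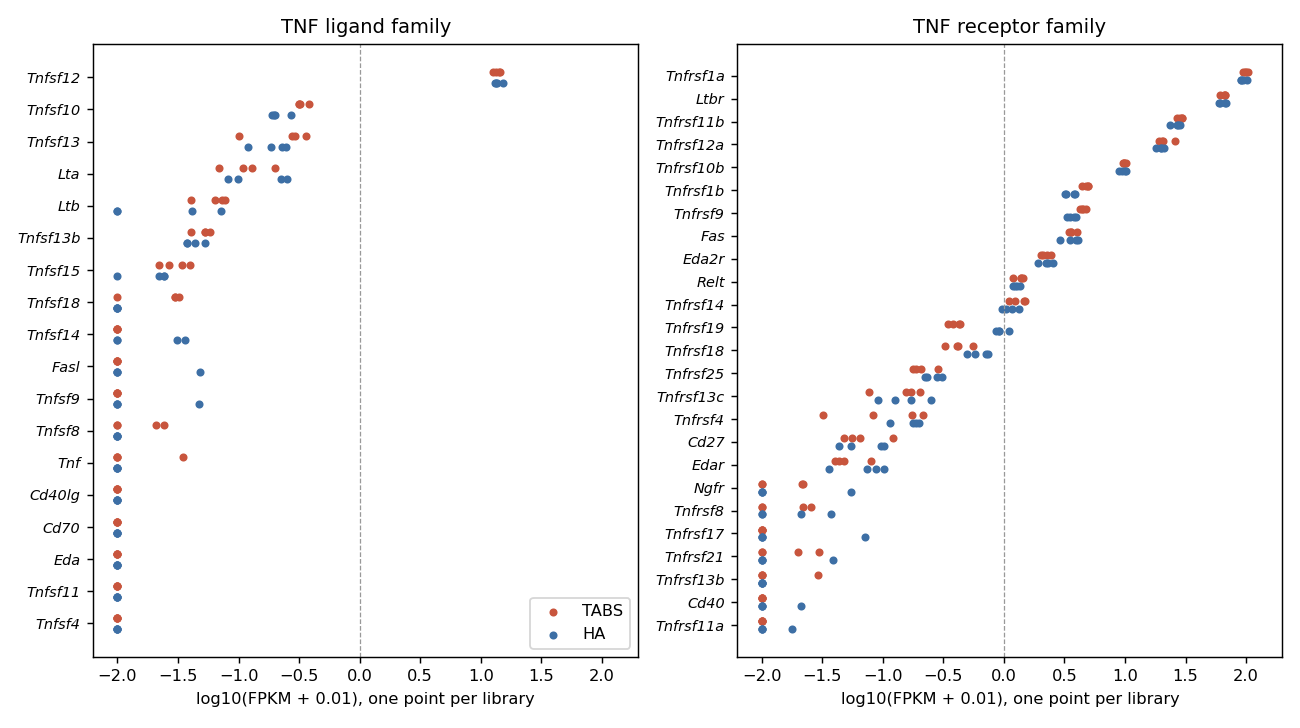
Levels of 18 TNF ligand genes and 25 TNF receptor genes in each library as log10(FPKM + 0.01), with TABS above HA in each row and the dashed line at 1 FPKM. Tnfsf12 is the ligand gene right of the line, and 11 receptor genes, with Tnfrsf11b below Tnfrsf1a and Ltbr, have means right of it on both scaffolds, with 1 library of Tnfrsf14 (HA 4, 0.948 FPKM) left of it.

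Among 13 growth factor and cytokine genes of blood cell lineages, Csf1 had the highest mean FPKM in both groups. Kitl, the stem cell factor gene, was next, with 31.1, 31.3, 26.5 and 27.8 FPKM in TABS 1 to 4, against 31.6, 31.9, 32.9 and 40.4 FPKM in HA 1 to 4 (limma adjusted p = 0.162, all TABS libraries below all HA libraries), and then Il34. Of the 13, 6 were tested, with 1 higher (Cxcl12), 1 lower (Il7) and 4 not called, beside 7.38% of all tested genes called. Il7, a lymphocyte growth factor gene, had 0.814 to 0.997 FPKM in TABS and 1.19 to 1.53 FPKM in HA (log2 fold change -0.29 ± 0.06 SE, limma adjusted p = 0.0213). It was under 1 FPKM in every TABS library and passed the filter only through HA, where it is high. The call on Il7 was lost without TABS 1, TABS 2, TABS 4 or HA 2 (highest adjusted p 0.0616), when low genes were kept (0.0681) and after the GC and length correction (0.132). Csf2, the gene of GM-CSF, and Il3 were listed at 0 in every library, and Csf3, the gene of G-CSF, averaged 0.00716 FPKM in TABS and 0.0218 FPKM in HA.

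Genes whose levels ran most like those of the cytokine genes were found by Pearson correlation of log2(FPKM + 1) over the 8 libraries, among 8798 protein-coding genes. For Tnfrsf11b they were Pptc7 (r = 0.987), Kif1b, Dido1, Stk38l and Fam129a (0.950 to 0.959). For Csf1 they were Dcaf10 (0.971), L3mbtl2, Recql5, Pisd and Tep1 (0.928 to 0.967). For Il34 they were Bckdha (0.964), Btbd2, Sh3glb2, Zdhhc4 and Slc39a11 (0.947 to 0.962). None of these 15 genes passed the test of TABS against HA. They were chosen for likeness to genes that were not called in the same libraries, so this is no separate result. The 3 sets of 5 share no gene. With 8 points per gene and 8798 genes searched, correlations of this size are a description of these libraries.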

How the data were processed

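RNA was sequenced from 8 MC3T3-E1 libraries, 4 TABS and 4 HA. The deposited table held 1 FPKM value per gene and library, made by the authors. The mouse build GRCm38 and the tools fastp, STAR and DESeq2 come from the submitters' processing notes, with no roles or versions, and no annotation release or strand setting was stated. Columns were assigned by the library names in the labels (letter H for TABS, L for HA), and no gene in the data checks this assignment. Symbols, positions and lengths came from GENCODE M21, which held 55154 of 55335 identifiers, and promoters from RefSeq (GRCm38.p6). FPKM values are not counts, so limma 3.58.1 in R 4.3.3 was run on log2(FPKM + 1), tested on simulated data beforehand, with variances that follow the level and no block. Fold changes are TABS minus HA on that scale, which understates changes of low genes. The labels do not say whether replicates were separate cultures; the p-values reflect the spread among the libraries at hand, possibly technical. Alternatives were TPM, median-of-ratios and quantile scaling, no filter, a pseudocount of 0.1, robust variances, the replicate number as a block, a spline correction for GC content and length (with and without the block) and leaving out each library. Low genes kept means no filter. Intervals are limma's 95% intervals. Named genes are the 4 cytokine genes, list genes that passed the test, up to 3 per list by smallest adjusted p, and the 5 most correlated genes per tested cytokine gene. Further list genes were named after their values were seen. The cytokine genes and all lists, marker lists included, were chosen with earlier results of these data known.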

Additional observations from a re-analysis of the deposited data

Results flagged for a closer look

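In 77 tested list genes, each group of 4 libraries was checked for a library that stood apart from the other 3 (Dixon's test, 95% level), and 12 of 154 groups held one, where chance flags about 1 in 20. None of them concerned Csf1, Tnfrsf11b or Il34. In TABS, Sdc1 had 51.4 FPKM in TABS 3 (46.3 to 46.7 in the other 3), Cebpb 54.4 FPKM in TABS 3 (46.6 to 47.7), Il1r1 2.24 FPKM in TABS 3 (2.13 to 2.14), Relb 4.98 FPKM in TABS 4 (4.50 to 4.55) and Lgals9 42.0 FPKM in TABS 4 (34.1 to 34.9). Low values in TABS were those of Fam3c with 11.7 FPKM in TABS 4 (12.5 to 12.6), Pth1r with 0.862 FPKM in TABS 2 (0.933 to 0.938), Ltbr with 61.2 FPKM in TABS 2 (66.1 to 66.8) and Relt with 1.19 FPKM in TABS 2 (1.38 to 1.42). In HA, Kitl had 40.4 FPKM in HA 4 (31.6 to 32.9), Il17ra 2.72 FPKM in HA 2 (2.39 to 2.44) and Il1r1 1.65 FPKM in HA 1 (2.03 to 2.10).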

How the results depend on the processing

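The number of genes called over the whole table was 833. It was 542 with no filter on low FPKM, 230 with the replicate number as a block, 331 with the GC and length correction and the block, and 415 (without TABS 3) to 718 (without HA 1) with 1 library left out, within 1.5 times of the reported count without HA 1 or HA 4 and further from it without any other library. After rescaling to TPM the split was 915 higher and 239 lower, and after the GC and length correction 492 and 455, against 506 and 327 as reported. With that correction Tnfrsf11b passed at 0.17 (adjusted p = 0.0452), and with the block added its adjusted p was 0.137; the cause was not tested. With 1 library left out its log2 fold change ran from 0.05 to 0.14, that of Csf1 from 0.04 to 0.08 and that of Il34 from 0.03 to 0.12. The sign turned for Csf1 (-0.0048), Lgr4 (-0.00098) and Ptgs2 (0.014) with that correction, with and without the block, and for Tnfsf12 after rescaling to TPM (0.023). With 1 library left out it turned for Lgr4 (-0.011 to 0.047) and Tnfsf12 (-0.044 to 0.027). None of these 4 genes was called in any setting. Same-numbered libraries showed little shared deviation (correlations of 0.105, 0.0496, -0.104 and -0.0576 for numbers 1 to 4). TABS 2, TABS 3 and TABS 4 correlated best with another number (0.173 with HA 4, 0.0907 with HA 1 and 0.177 with HA 3). Such weak correlations do not settle whether the numbers pair the samples. With the block the calls on Timp3, Ptges, Tnfrsf1b, Ephb4, Cxcl12, C3, Tnfrsf9, Il7, Spp1, Col1a1 and Col2a1 did not pass, while Ccl2 did (adjusted p = 0.0373, and 0.0151 with the GC and length correction added). Jun and Pth1r passed in all 17 alternatives, Col1a1 in 9, Spp1 in 12 and Col2a1 in 7. Depth is unknown without counts, which limits what a listed 0 for Tnfsf11 can show.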

Other observations

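Levels of 3 genes of the lists differed between libraries of HA, and were named after their values were seen. Cx3cl1, the gene of the chemokine fractalkine, had 8.26, 7.11, 9.83 and 7.99 FPKM in TABS 1 to 4, against 26.3, 26.3, 2.70 and 4.26 FPKM in HA 1 to 4, with a limma adjusted p of 0.852. Il6st, the gene of the shared IL-6 family receptor gp130, had 12.7, 13.7, 12.9 and 13.3 FPKM in TABS 1 to 4, against 8.17, 7.58, 12.4 and 13.4 FPKM in HA 1 to 4, with a limma adjusted p of 0.209. For both genes HA 1 and HA 2 stood on one side of all TABS libraries, while HA 3 and HA 4 were on the other side for Cx3cl1 and near them for Il6st. Epo, the erythropoietin gene, was at 0 in every library except HA 4, where it had 2.14 FPKM, and its exons share 104 bases with Gnb2.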
